A study of Homo sapiens with 7 samples.

Results

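The genes described here code for the coats, tethers and receptors that move membrane between the endoplasmic reticulum and the Golgi apparatus: the COPI and COPII coats, the ARF GTPases, the golgins and stacking proteins, the KDEL and p24 receptors and the COG complex. The 50 members were chosen by gene symbol, as the non-control probes whose gene name on the array equals a member, out of 36337 gene names on the array. All 50 were found, on 74 probes printed as 83 spots. The study followed the transcriptional response of human cells to extra chromosomes and set it beside responses to stress, and this experiment was its bafilomycin A1 arm. Bafilomycin A1 blocks the vacuolar proton pump, and the cells were HCT116, a human colon carcinoma line, in a derivative that carries the histone H2B-GFP. The 4 treated cultures received 10 nM bafilomycin A1 for 30 h, and both arms were grown in DMEM with 10% FBS per the labels, while the methods give a lower share of serum. The 3 untreated H2B-GFP samples were not analysed here, so the values describe 1 condition, its level and its error, and no difference between treated and untreated cells was measured.

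As background, COPII coats bud vesicles from the endoplasmic reticulum after the GTPase SAR1 is loaded with GTP, and COPI coats, recruited by ARF GTPases, carry material back from the Golgi and between its cisternae. Golgins and the USO1 tether catch vesicles before fusion, the COG complex tethers vesicles within the Golgi, and KDEL receptors return escaped chaperones to the endoplasmic reticulum by binding them at the lower pH of the Golgi. Bafilomycin A1 is known to raise the pH of acidic compartments, the Golgi apparatus included.

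Each value below is a normalized log2 signal: the log2 of the background-subtracted signal minus the median of its array, with the median taken over the probes of a gene. A value of 0 is the median of those probes of the array that had a positive signal. Signals of different probes carry each probe's own efficiency, so levels are given side by side, and only their movement between arrays is compared. A probe was detected when the scanner software flagged it as well above background, and a gene when at least 1 of its probes was detected on all 4 arrays. No spot was saturated, between 55.6% and 60.4% of the non-control spots of an array were well above background, and all 4 arrays lay on 1 slide, so slide and scan could not be tested as batches. The epithelial markers EPCAM, KRT8, KRT18, KRT19, CDH1 and CLDN7 were detected in 6 of 6 cases, at mean levels from 5.39 to 11.8. Of the 5 markers of other cell types, PECAM1 and ALB were well above background on no array, while PTPRC, CD3E and COL1A1 were detected by at least 1 probe, COL1A1 with the highest mean level, 2.91.

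The probes that the main findings rest on are shown first, 5′ to 3′ in the sense of the transcript, as the deposited files give them, with GRCh37 positions. The only undetected member, COPZ2, was read by a probe at chr17:46103783-46105838 (minus strand) that crosses an intron and runs over the end of the coding sequence. It is shown up to the stop codon, which is in capitals.
COPZ2: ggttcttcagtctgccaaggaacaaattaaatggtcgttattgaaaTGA
Both SEC23B probes also cross introns, at chr20:18526643-18529277 and chr20:18531782-18534900 (plus strand), so they read spliced coding sequence.
SEC23B, first probe: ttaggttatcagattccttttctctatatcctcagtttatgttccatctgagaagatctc
SEC23B, second probe: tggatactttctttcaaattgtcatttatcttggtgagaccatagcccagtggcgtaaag
The KDELR1 probe at chr19:48887561-48887620 (minus strand) and the KDELR3 probe at chr22:38877404-38877463 (plus strand) lie in coding sequence, judged from their open reading frames, and are 1 of the pairs whose difference was set apart on replicate 3.
KDELR1: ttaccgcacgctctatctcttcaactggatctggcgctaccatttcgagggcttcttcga
KDELR3: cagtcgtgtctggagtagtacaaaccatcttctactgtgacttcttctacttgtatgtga
COG6 was read by a probe for the transcript NM_020751 at chr13:40326225-40326284 and by one for NM_001145079 at chr13:40364766-40364825, both on the plus strand, and the second decided its value on 1 array. The first 30 bases of each are shown.
COG6, NM_020751: aaatgactgtatttttaaaggaataaatcc
COG6, NM_001145079: aaatattgtttgtatttttgttgggagtag

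Of the 50 members, 49 were detected on all 4 arrays, which is 98%, while 54.2% of all gene names on the array were detected by the same rule. All members of the COPII coat, the ARF group, the golgins, the receptors and the COG complex were among them, and so was STX5, the Golgi SNARE that partners with COG. The exception was COPZ2, a second form of the COPI ζ subunit. Of the 74 probes, 66 were detected on all 4 arrays, 5 on some and 3 on none. Of the 65 probes designed on a curated RefSeq messenger RNA, 61 were detected on all arrays, against 5 of the 9 probes designed on other transcript records. When every probe of a gene had to be detected, the count of members fell to 42.

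**Figure D1:**
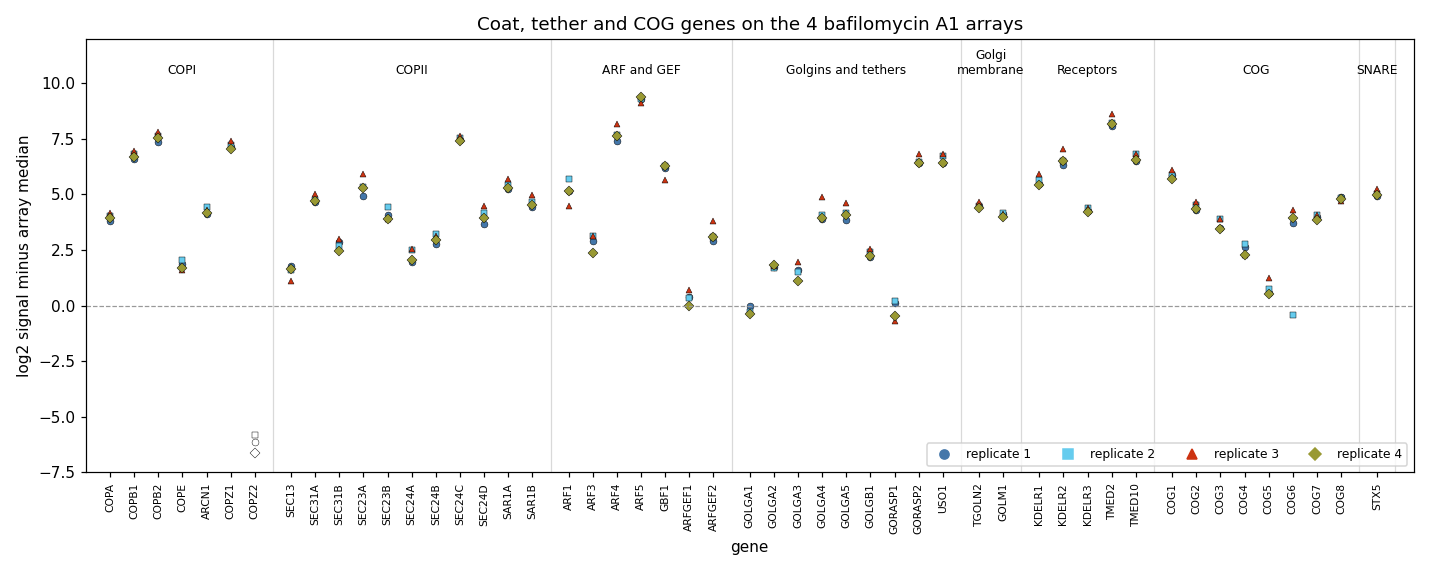
Normalized log2 signal (log2 signal minus array median, y axis) of each of the 50 genes (x axis), grouped by role, with 1 symbol per replicate array; open symbols mark a gene not detected on all 4 arrays. COPZ2, which was not well above background, has points on the 3 arrays that gave a positive mean signal, COG6 falls to -0.42 on replicate 2, and all other genes lie between -0.70 and 9.36.

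The COPI coat was present with its measured core subunits. The 6 detected subunits had mean levels of 3.98 for COPA (α), 6.77 for COPB1 (β), 7.58 for COPB2 (β′), 1.80 for COPE (ε), 4.24 for ARCN1 (δ) and 7.19 for COPZ1 (ζ), with SDs between 0.14 and 0.20 (n = 4). None of the 6 spanned more than 1.4-fold between its highest and lowest array, the size that the study took as a change. Of all detected genes, 45.6% did. With the processed signal 1 of the 6 did. COPA, COPB1, COPB2 and COPZ1 were highest on replicate 3, and COPE and ARCN1 on replicate 2. COPE was also the only one lowest on replicate 3. Its value lies between 2 distant probes. The NM_199444 probe gave 4.91, 4.98, 4.78 and 4.75, lowest on replicate 4. The AK023303 probe was far dimmer, with a mean of -1.24, and was lowest on replicate 3 (-1.61).

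The ζ subunits differed in detection. COPZ1 gave 7.11, 7.20, 7.39 and 7.05 on replicates 1 to 4. COPZ2 gave -6.13, -5.84 and -6.61 on replicates 1, 2 and 4 and had no positive signal on replicate 3. Its probe, printed above, is spotted 10 times on each array, so the error within an array can be given as well. On the linear scale its spots averaged 1.11 ± 5.40 on replicate 1 (SD, n = 10 spots), 1.22 ± 4.16 on replicate 2 (n = 9), -2.004 ± 4.68 on replicate 3 (n = 9) and 0.648 ± 4.12 on replicate 4 (n = 9). The dimmest non-control spot called well above background had a signal between 20.8 and 22.3, depending on the array. Of the 37 COPZ2 spots used, the highest on any array, at 11.8, was below that, and 0 were well above background. Outlier spots, left out on replicates 2, 3 and 4, are not part of this count. The log2 values of COPZ2 are thus logs of spot means close to 0 and give no level. With outlier spots kept they averaged -4.02. The dimmest spot well above background corresponds to a normalized log2 signal between -1.84 and -1.51, depending on the array, and COPZ2 was not detectable above that.

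For the COPII coat, all 11 members were detected, and the span between arrays passed 1.4-fold in 7, beside 45.6% of all detected genes. SEC31A, the outer cage subunit, gave 4.67, 4.73, 5.00 and 4.71, and its paralog SEC31B gave 2.86, 2.69, 2.98 and 2.45. Both SEC31 genes were highest on replicate 3. Unlike COPZ2, the second SEC31 form was detected on every array.

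The SEC23 paralogs, the GTPase-activating subunits of the inner coat, moved apart. SEC23A gave 4.94, 5.35, 5.92 and 5.29 and had the fifth largest SD of the detected members (0.41), with a 1.97-fold span. SEC23B gave 4.07, 4.43, 3.88 and 3.91, a 1.47-fold span. On replicate 3 SEC23A was at its highest and SEC23B at its lowest. Both SEC23B probes, which read different exons, were lowest there, at 3.28 and 4.47. The difference SEC23A minus SEC23B was accordingly 0.87, 0.92, 2.05 and 1.38, with an SD of 0.55 that exceeded the SDs of both genes (0.41 and 0.25). Without replicate 3 this SD was 0.28.

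The 4 cargo-binding SEC24 subunits were all detected. SEC24A gave 1.98, 2.50, 2.53 and 2.03, and SEC24B gave 2.77, 3.24, 3.13 and 2.97. SEC24D gave 3.69, 4.15, 4.48 and 3.95. In these 3 genes replicate 1 was the lowest. SEC24C gave 7.44, 7.52, 7.62 and 7.40, an SD of 0.10 that was among the 5 smallest of the detected members. The difference SEC24B minus SEC24D was -0.92, -0.91, -1.35 and -0.99, with replicate 3 just past Dixon's limit (0.830). The difference SEC24A minus SEC24B had a smaller SD (0.14) than either gene (0.30 and 0.21). With background-flagged spots left out it rose to 0.255, above the SD of SEC24B, and without replicate 1 it was 0.168, again above that of SEC24B (0.138).

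The SAR1 GTPases, which start COPII assembly, were the pair whose difference moved least. SAR1A gave 5.25, 5.41, 5.70 and 5.30, and SAR1B gave 4.44, 4.64, 4.97 and 4.52. Their difference stayed between 0.74 and 0.81, with an SD of 0.029, the smallest of the 20 paralog differences that could be computed. The SD of each gene alone was 0.20 for SAR1A and 0.23 for SAR1B. The small SD of the difference rests on 1 SAR1A probe, the middle of 3 that were all detected on every array. The brightest SAR1A probe gave 6.66, 6.91, 6.85 and 6.76, and the dimmest gave 4.23, 4.51, 4.45 and 4.13. Both were highest on replicate 2, while SAR1B was highest on replicate 3. Differences of these probes from SAR1B were not computed. SEC13, which the COPII cage shares with the nuclear pore, gave 1.78, 1.61, 1.09 and 1.65, a value that depended on which of its 5 probes was read, as described further on.

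Of the ARF GTPases and their exchange factors, 6 of 7 spanned more than 1.4-fold between arrays, beside 45.6% of all detected genes, and the median SD was 0.33. Without replicate 3 the span passed 1.4-fold in 2 of 7 and the median SD was 0.15, below the 0.20 of the COPII coat. ARF1, the main recruiter of COPI, gave 5.18, 5.70, 4.47 and 5.15, a 2.35-fold span and the largest SD (0.50) after COG6. ARF4 gave 7.40, 7.68, 8.19 and 7.63. ARF5 gave 9.31, 9.28, 9.11 and 9.36. ARF1 and ARF5 were lowest on replicate 3, and ARF4 was highest there. The difference ARF1 minus ARF4 was therefore -2.23, -1.98, -3.72 and -2.48, and its SD of 0.77 was the largest of the 20. Without replicate 3 it was 0.25. ARF3 gave 2.90, 3.15, 3.13 and 2.36.

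The exchange factors load ARF with GTP. GBF1, which acts at the early Golgi, gave 6.18, 6.27, 5.66 and 6.29, lowest on replicate 3. ARFGEF1 gave 0.40, 0.36, 0.68 and -0.01, and ARFGEF2 gave 2.92, 3.06, 3.82 and 3.10. Both ARFGEF genes, which act at the late Golgi, were highest on replicate 3, the opposite of GBF1.

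**Figure D2:**
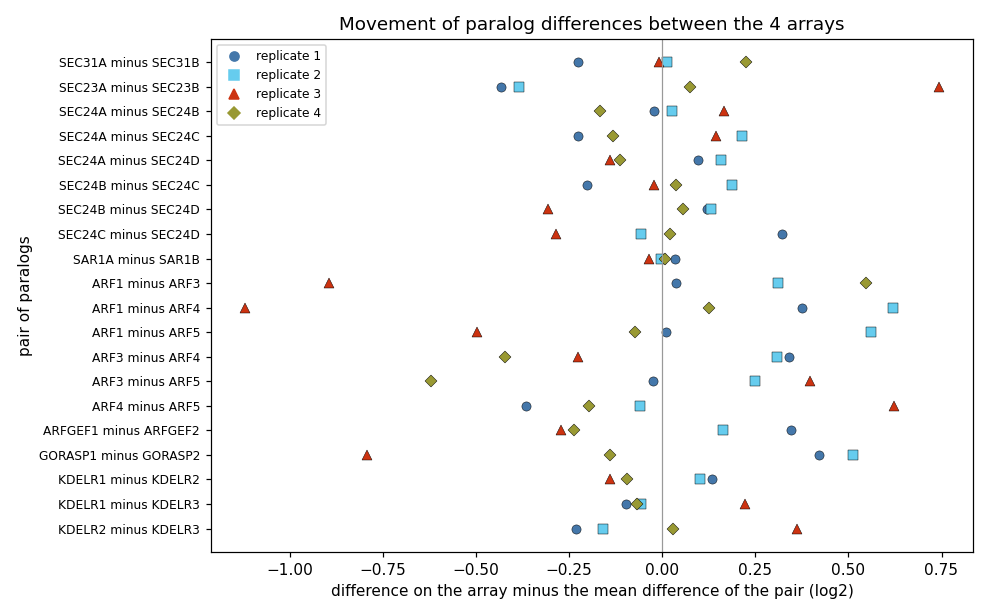
For each pair of paralogs (y axis), the difference of their normalized log2 signals on an array minus the mean difference of the pair (x axis, log2), with 1 symbol per replicate. The SAR1A minus SAR1B points (SD 0.029) lie close to 0, while ARF1 minus ARF4 spreads most (SD 0.77). Replicate 3 is the outermost point of ARF1 minus ARF4 and also of SEC23A minus SEC23B.

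The golgins, stacking proteins and tethers were all detected, and 4 of 9 spanned more than 1.4-fold, beside 45.6% of all detected genes. The coiled-coil golgins GOLGA3, GOLGA5 and GOLGB1 (giantin) had mean levels of 1.55 ± 0.37, 4.18 ± 0.34 and 2.35 ± 0.17 (SD, n = 4). GOLGA4, which catches endosome-derived vesicles at the trans-Golgi, gave 3.90, 4.09, 4.89 and 3.95, a 1.98-fold span set by replicate 3. GOLGA2 (GM130), a cis-Golgi golgin, gave 1.74, 1.71, 1.80 and 1.82 and had the smallest SD of all detected members, 0.052. GOLGA1 had a mean of -0.26 ± 0.16. USO1 (p115), which links COPII vesicles to GOLGA2 and giantin, was at 6.59 ± 0.21.

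The GRASP stacking proteins stood at opposite ends on replicate 3. GORASP1, the partner of GOLGA2, gave 0.10, 0.22, -0.70 and -0.45. GORASP2 gave 6.42, 6.45, 6.83 and 6.43. GORASP2 was one of the 2 detected members with an outlying array, by Dixon's ratio of the gap of the outermost array to the whole range (0.92, above the critical value for 4 values). The other 3 arrays lay within 0.034 of each other. With the software's processed signal, scaled to the 75th percentile of the array, or with normexp and quantile normalization, GORASP2 was still highest on replicate 3 but no longer apart. On the same array GORASP1 was at its lowest, and the difference GORASP1 minus GORASP2 ran from -7.53 on replicate 3 to -6.23 on replicate 2 (SD 0.60). Without replicate 3 that SD was 0.353, no longer above that of GORASP1 (0.359). The Golgi membrane proteins TGOLN2 (TGN46) and GOLM1 (GP73), which cycle between the Golgi and later compartments, had means of 4.51 ± 0.12 and 4.09 ± 0.08. GOLM1 gave 4.11, 4.15, 4.13 and 3.97, the second smallest SD of the detected members. Its value lies between 2 probes with larger SDs (0.14 and 0.11), 1 highest (4.90) and 1 lowest (3.35) on replicate 3.

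The KDEL receptors and the p24 cargo receptors TMED2 and TMED10 were highest on replicate 3 in 5 of 5 cases, as were 48.4% of all detected genes. With normexp and quantile normalization this held for 3 of 5: KDELR3 was then lowest on replicate 3 (3.78) and TMED10 highest on replicate 2 (6.29). KDELR1 gave 5.47, 5.64, 5.93 and 5.44, and KDELR2 gave 6.32, 6.52, 7.05 and 6.52. KDELR3 gave 4.26, 4.40, 4.40 and 4.21, an SD of 0.10 among the 5 smallest. The difference KDELR1 minus KDELR2 had an SD of 0.14 against 0.22 and 0.31 for the genes. Without replicate 3 it was 0.124, above the SDs of both genes (0.109 and 0.119). The difference KDELR1 minus KDELR3 was 1.21, 1.25, 1.53 and 1.24, with replicate 3 apart (Dixon's ratio 0.87). Without that array its SD was 0.021. TMED2 was at 8.27 ± 0.25, and TMED10 at 6.67 ± 0.17.

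All 8 COG subunits were detected. COG1, COG2 and COG3, of the lobe A of the complex, had means of 5.90 ± 0.18, 4.45 ± 0.17 and 3.68 ± 0.25, and COG4 had 2.50 ± 0.25 (SD, n = 4). COG5 was at 0.78 ± 0.33 and COG7 at 4.00 ± 0.11. COG8 gave 4.89, 4.83, 4.69 and 4.79 and had the third smallest SD of the detected members (0.081). Its value lies between 2 probes with larger SDs (0.10 and 0.24), 1 highest (6.21) and 1 lowest (3.17) on replicate 3. COG6 stood out, at 3.74, -0.42, 4.28 and 3.94. Its SD of 2.21 and its 25.9-fold span were the largest of all detected members, and Dixon's ratio set replicate 2 apart (0.88). The NM_020751 probe, detected on all 4 arrays, gave 3.74, 4.07, 4.28 and 3.94. The NM_001145079 probe was well above background on no array and had a positive signal, at -4.91, on replicate 2 alone. The median over probes averaged both on that array and took the first probe alone on the other 3. With probes detected on all arrays, the SD of COG6 was 0.23, and no array was apart. STX5 was at 5.04 ± 0.13.

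The choice of probe mattered beyond COG6. Of the 19 members with more than 1 probe, 13 had at least 2 that were detected on all arrays. The highest and lowest of these had mean levels between 1.10 and 8.82 apart on the log2 scale, over 2 apart in 8 of the 13. Such gaps include the efficiency of each probe and are no ratio of transcripts, but they set which value a median over probes takes. SEC13 was an example. Its most 3′ probe, for NM_183352 (chr3:10342658-10342717) averaged 8.42 and was highest on replicate 3 (8.72). The coding probe of the same transcript (chr3:10353650-10353709) gave 5.69, 5.89, 5.31 and 5.64. The AK095629 probe gave 1.78, 1.61, 1.09 and 1.65, which are the values of the gene, because it was the middle of the 5. The ENST00000479868 probe was detected on 1 array only. With probes detected on all arrays the mean of SEC13 was 3.58 in place of 1.53. The coding probe, from the minus strand, reads as follows.
SEC13, NM_183352: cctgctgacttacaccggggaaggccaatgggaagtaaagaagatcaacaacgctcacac

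ARF3 was similar, with its NM_001659 probe at 7.03, 7.11, 7.61 and 7.14 and its ENST00000472621 probe, detected on 3 arrays, at -1.22, -0.81, -1.36 and -2.42. The gene value of 2.89 lay between them, and with detected probes alone it was 7.22, while the SD of ARF3 minus ARF4 fell from 0.38 to 0.096. ARFGEF1 had a probe at 3.42 and one, designed on AB209324, that was detected on no array. Levels of ARFGEF1, COG5, GOLGA1 and GOLGA3 were likewise medians of 1 probe that was detected on every array and 1 that was not. In all, 7 members had a probe of this kind, and in the other 12 with more than 1 probe, SEC23B, SAR1A and TMED10 among them, every probe was detected on every array.

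**Figure D3:**
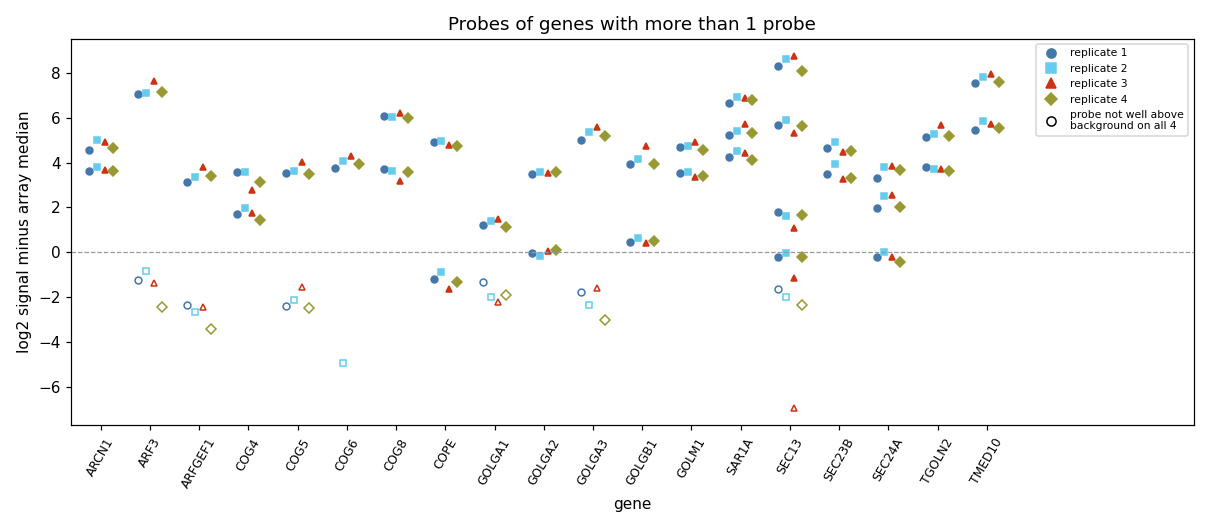
Normalized log2 signal (y axis) of every probe of the 19 genes with more than 1 probe (x axis), 1 symbol per replicate; open symbols mark probes not well above background on all 4 arrays. SEC13 runs from 8.72 down to -6.92, and the second COG6 probe has its single value, -4.91, on replicate 2.

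Across the 49 detected members, the median SD between the 4 arrays was 0.208, beside 0.205 over all 19689 detected genes. The highest array was more than 1.4-fold above the lowest in 22 members (44.9%), close to the 45.6% of all detected genes. An array lay apart by Dixon's ratio in 2 members (4.08%), beside 7.94% of all detected genes. By group, the span passed 1.4-fold in 0 of 6 COPI genes, 7 of 11 COPII genes, 6 of 7 ARF genes, 4 of 9 golgins and tethers, 2 of 5 receptors and 3 of 8 COG genes. These counts rest largely on 1 array: without replicate 3 the median SD was 0.118 and 8 members spanned more than 1.4-fold. With normexp and quantile normalization, 10 members did (20.4%), beside 14.0% of all detected genes, and the median SD was 0.104, beside 0.11 over all.

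Replicate 3 was the highest array for 33 of the 49 detected members (67.3%), and for 48.4% of all detected genes. The median deviation of replicate 3 from the mean of a gene was 0.21 over the members and 0.10 over all detected genes. Among the groups this median ran from 0.10 for the 2 Golgi membrane proteins to 0.31 for the receptors. In 9 members replicate 3 was instead the lowest: COPE, SEC13, SEC23B, ARF1, ARF5, GBF1, GORASP1, COG4 and COG8. In 4 of these another probe, detected on all arrays, did not share this. The most 3′ SEC13 probe and an NM_032382 probe of COG8 were highest on replicate 3 (8.72 and 6.21). The NM_199444 probe of COPE and the NM_001195139 probe of COG4 were lowest on replicate 4 (4.75 and 1.44). The excess of members highest on replicate 3 depended on the scaling. With the processed signal, 32 of the 49 members were highest there, beside 39.7% of all detected genes. With normexp and quantile normalization 20 members were (40.8%), beside 36.6% of all detected genes. All 9 members that were lowest on replicate 3 stayed lowest there with normexp and quantile normalization, and SEC23A, ARF4 and GORASP2 stayed highest.

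**Figure D4:**
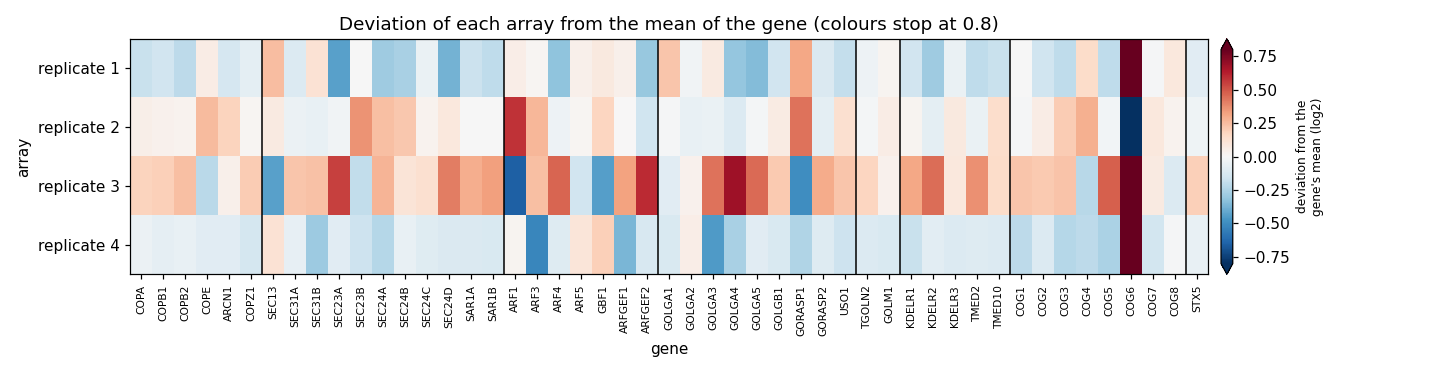
Deviation of each array (rows) from the mean of the gene over 4 arrays (log2, colour) for the 49 detected genes (columns), ordered by role with vertical lines between groups. Replicate 3 is mostly red, with ARF1, GBF1, SEC13 and GORASP1 blue, and COG6 is beyond the colour range.

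The deviation of replicate 3 moved with the base composition of the probes. Over the 66 member probes detected on all arrays, Pearson's r between GC content and the deviation was -0.465 (Spearman's rho -0.49), and over all 25661 such probes it was -0.38. This is a description over probes that share the same 4 arrays. The 27 member probes with under 40% GC had a median deviation of 0.27, and 24 of them were above 0. The 9 probes with 50% GC or more had a median of -0.07, and 4 were above 0. Exceptions in the first class were ARF1 (38.3% GC, -0.65), GORASP1 (35% GC) and the first SEC23B probe (35% GC). The part of base composition in the pattern was not tested.

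**Figure D5:**
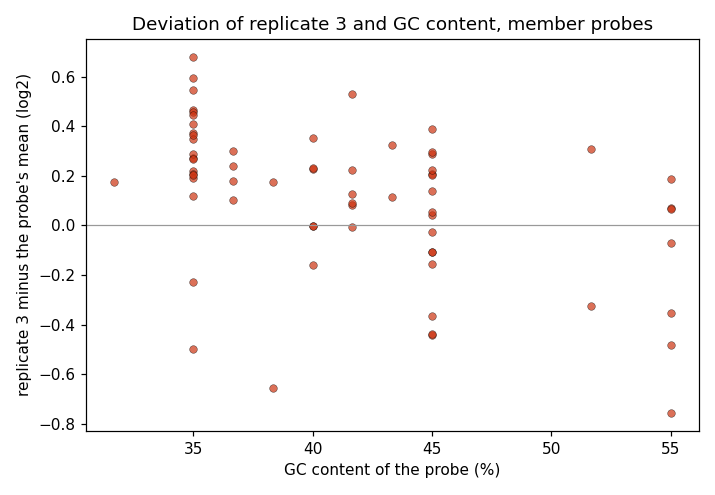
Deviation of replicate 3 from the probe's mean over 4 arrays (y axis, log2) against the GC content of the probe (x axis, %), 1 point for each of the 66 member probes detected on all arrays. Probes with under 40% GC mostly lie above 0, and those at 55% reach down to -0.76.

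The median SD of the 20 paralog differences that had 4 values was 0.26. The SD of the difference was smaller than that of both genes in 4 pairs, SEC24A with SEC24B, SEC24A with SEC24D, SAR1A with SAR1B and KDELR1 with KDELR2. It was larger than that of both in 7 pairs, which were SEC23A with SEC23B, GORASP1 with GORASP2 and 5 of the 6 pairs among ARF1, ARF3, ARF4 and ARF5 (the exception was ARF1 with ARF5). Many of these relations depended on 1 array or on the spots and probes used. Of the 4, SAR1A with SAR1B had the smaller SD under every alternative run, but no run set SAR1B against the other SAR1A probes alone. SEC24A minus SEC24D rose to 0.46 with background-flagged spots left out, above both genes, and SEC24A minus SEC24B and KDELR1 minus KDELR2 lost the relation as given above. KDELR1 minus KDELR2 also lost it with the processed signal (0.158) and with normexp and quantile normalization (0.127). Of the 7, ARF3 with ARF4 turned to smaller than both with probes detected on all arrays (0.096), as did ARF1 with ARF3 without replicate 3 (0.256). ARF1 with ARF4 and GORASP1 with GORASP2 lost the relation without replicate 3, and ARF3 with ARF4 also without replicate 1 (0.378), 2 (0.396) or 4 (0.317) and with normexp and quantile normalization (0.17). SEC23A with SEC23B, ARF3 with ARF5 and ARF4 with ARF5 kept the larger SD under every alternative run. Pairs within a family share genes and are not independent of each other. COPZ1 minus COPZ2 has no value on replicate 3.

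Other genes of the same pathway were examined beside the members. Of 43 listed, 42 were found on the array, COPG1 under its older symbol COPG, and 41 were detected on all 4 arrays. The exception was SEC16B, the shorter form of the scaffold at endoplasmic reticulum exit sites, which was detected on 1 array and gave -2.69, -2.98, -2.69 and -3.43. The 41 had a median SD of 0.198. The span was over 1.4-fold in 10 of them (24.4%), beside 45.6% of all detected genes and 44.9% of the members, and the difference between the lists was not tested. With normexp and quantile normalization it was over 1.4-fold in 11 of the 41, beside 14.0% of all detected genes and 20.4% of the members. The list was then above both shares, in place of below them. An array lay apart in 4 of the 41, COPG2, SEC22B, USE1 and GOLPH3, named here after their values were seen, in each case with replicate 3 high. The widest spread was in SEC16A, the main scaffold, at 2.04, 2.31, 1.18 and 1.80, in TMED9, a p24 receptor, at 6.11, 6.11, 5.11 and 5.91, and in TMED1 at 4.05, 4.14, 3.16 and 3.77. All 3 were lowest on replicate 3, as ARF1 and GBF1 were. Replicate 3 was the highest array for 22 of the 41, and its median deviation from the mean of a gene was 0.11, beside 0.21 for the members.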

How the data were processed

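The authors deposited 1 Feature Extraction 10.7.3.1 file per array of the 4 bafilomycin A1 cultures, holding linear intensity values from which the scanner software had taken off the background, with no scaling between arrays. The deposited files also hold 0 or 1 flags per spot (not a score or test), and probe coordinates are those of GRCh37. The 3 untreated samples were not analysed here.

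Control spots and feature outlier spots (275 to 410 per array) were dropped and repeated spots averaged. The steps of the study's methods followed: log2 of the background-subtracted signal, subtraction of the array median, and the median of each gene's probes. Signals at or below 0 (14.8% to 17.4% of spots) were left out on that array. Spots flagged for their local background were kept, because the subtracted background was a surface fitted over the array, and leaving them out was an alternative chosen after seeing the data. The members and lists were chosen with earlier results of these data known.

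No test between groups was run. Spread was given as the SD, the span against 1.4-fold and Dixon's ratio, which on simulated data with 19689 genes and an SD of 0.2 marked 4.65% of unchanged genes and 59.5% of 200 genes shifted by 2 (log2) on 1 array. Precision is limited by the number of arrays. Alternatives were the software's processed signal scaled to the 75th percentile, normexp (offset 50) with quantile normalization in limma, other probe and outlier rules, and each array left out. All members are named. Values on each array are given for the paralog families, undetected members, members with an array apart or a changing number of positive probes, and the 5 largest and 5 smallest SDs. Other genes of the pathway are named if undetected, among the 3 largest SDs or matched by an older symbol. Those with an array apart are named as well, a choice made after their values were seen. Python 3.11.15 with numpy 2.4.6 and pandas 2.3.3, and R 4.3.3 with limma 3.58.1, were used.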

Additional observations from a re-analysis of the deposited data

Results flagged for a closer look

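An outermost array lay apart from the other 3 in 4 of 80 values examined (49 genes, 20 paralog differences and 11 list means), and chance marks about 1 in 20. GORASP2 was apart on replicate 3, on the high side, with a ratio of 0.92 (6.83 there, between 6.42 and 6.45 on the other arrays). COG6 was apart on replicate 2, on the low side, with a ratio of 0.88 (-0.42 there), where a probe that was well above background on no array entered its median. The difference KDELR1 minus KDELR3 was apart on replicate 3 with a ratio of 0.87 (1.53 there, between 1.21 and 1.25 elsewhere). The difference SEC24B minus SEC24D was apart on replicate 3 with a ratio of 0.830 (-1.35 there, between -0.99 and -0.91 elsewhere). In 3 of the 4 the array was replicate 3, on which 48.4% of all detected genes were highest, and what sets that array apart was not tested.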

How the results depend on the processing

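No paired analysis was possible because the untreated samples were not analysed here. Replicate numbers recur in both arms, but the labels do not say that equal numbers mark a pair. The number of detected members stayed between 42 (every probe detected) and 49 under all alternatives run, and was 49 without any 1 array. TMED2 was the member lost when spots with a flagged local background were left out (48). With normexp and quantile normalization the median SD of the members was 0.104, 10 members spanned more than 1.4-fold, 20 were highest on replicate 3, 4 had an array apart (COPZ1, GBF1, GOLGA4 and COG5) and the median SD of the paralog differences was 0.20. Members with an array apart numbered 1 with the processed signal (KDELR1), 1 with probes detected on all arrays and 1 with probes positive on all arrays (GORASP2 in both), and 4 with background-flagged spots left out (GORASP2, COG6, GBF1 and TGOLN2). Of all detected genes, 6.39%, 7.17%, 7.20% and 8.48% had an array apart in these runs, in the same order, and 6.15% with normexp and quantile normalization. The median SD of paralog differences was 0.21 with probes detected on all arrays and 0.31 with background-flagged spots left out. Leaving out 1 array at a time gave a median SD of 0.118 to 0.231, 8 to 20 members over 1.4-fold and a median paralog SD of 0.213 to 0.286. The lowest of each came without replicate 3. The causes were not tested. Mean levels of 6 members rose by more than their SD with probes detected on all arrays, and levels moved by scaling in 49 (processed signal, all lower) and 43 members (normexp and quantile, 35 lower and 8 higher). With the median over arrays in place of the mean, 0 of 50 moved by more than their SD.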
